A study of Mus musculus with 12 samples.

Results

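The SLAM receptors are surface proteins of immune cells encoded in a shared region of mouse chromosome 1, with other genes between some of them. The 7 genes described here, Slamf1, Slamf7, Slamf8, Slamf9, Cd48, Cd84 and Ly9, were chosen by name, with the outcome of the comparisons below already known, from 52636 gene identifiers in the count file. All 7 were in the file and all 7 passed the filter on low counts, which kept 14687 genes. Their levels and changes are therefore given as a description, with no p-value printed. Where a fit over all genes calls one of the 7, the call is part of that description and is no test of the choice. The other 2 receptors of the family, Slamf6 and Cd244a, were left out of that choice, which was made with earlier results of these data known. The gene lists further below were drawn up with such results known too. P-values printed for these genes come from the fit over all genes and are also read as description.

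RNA was sequenced from primary microglia, the resident macrophages of the brain, in 3 groups of 4 libraries: FL-NfL, CC-NfL and Vehicle. NfL is neurofilament light chain, a structural protein of axons. FL-NfL cells received 5 µg of the full-length protein for 24 h, CC-NfL cells 5 µg of its coiled-coil region for 24 h, and Vehicle cells the carrier for the same 24 h. All groups were wild-type C57BL/6 cells from pups of postnatal day 1 to 2, collected from mixed glial cultures after 10 to 13 days, seeded in wells of 50000 cells, given 2.5 ng of the microglial growth factor CSF1, and treated 2 to 4 days after plating. Each of the 4 replicate numbers is a batch of its own in the labels, with 1 library of each group. The labels do not say whether a batch was a separate culture or litter, and p-values then reflect only how much these libraries vary, and the cells had been away from the brain for days.

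Library totals ran from 20162427 to 31048044 counts. All 10 microglia and macrophage markers examined were detected. Their summed level was 7899 to 8475 CPM in FL-NfL, 8552 to 9459 in CC-NfL and 8540 to 10047 in Vehicle (CPM, counts scaled to library size with TMM factors). With FL-NfL, 2 of the 10 were called higher and 3 lower, where 14.0% and 10.9% of all 14687 tested genes were. With the replicate number as a block in the fit, 5 were called higher and 4 lower, where 21.4% and 22.4% of all tested genes were. SLAM receptors are also found on lymphocytes. Of 17 T, B and NK cell markers, Cd3e, Cd3d, Cd3g, Ncr1 and Nkg7 had 0 counts in every library. The summed level of the 17 was 6.27 to 11.1 CPM in FL-NfL, 9.05 to 13.7 in CC-NfL and 5.53 to 11.2 in Vehicle, most of it Cd4 (at most 10.5 CPM). Of the 17, only 3 passed the filter and 1 was called higher with FL-NfL, the B cell receptor chain Cd79b, at a mean of 1.40 CPM with FL-NfL and 0.47 CPM with Vehicle. The 5 monocyte markers summed to 1.65 to 4.23 CPM in FL-NfL, 2.11 to 3.31 in CC-NfL and 2.16 to 4.30 in Vehicle. The 5 dendritic cell markers summed to 2.17 to 4.86, 3.44 to 4.66 and 2.78 to 4.11 CPM in the same groups, and 1 of them was called higher with FL-NfL, the chemokine receptor Xcr1, at 1.71 CPM with FL-NfL and 0.61 CPM with Vehicle. With the block 1 of 2 tested dendritic cell markers was called higher and 1 lower, and the 1 tested monocyte marker was called lower. The part of such cells in the levels of the SLAM receptors was not tested.

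Most SLAM receptors are their own ligand and bind the same receptor on a neighbouring cell. Slamf1, Slamf7, Cd84, Ly9, Slamf6 and Cd244a have cytoplasmic tyrosine motifs that recruit small adaptors of the SAP family, which link them to Src-family kinases, and without an adaptor the motifs can recruit phosphatases. Slamf8 and Slamf9 have short tails that lack such motifs. Cd48 has no tail at all, being held by a lipid anchor, and is the ligand of Cd244a. In macrophages the family has been tied to phagocytosis and to the oxidase that produces reactive oxygen in phagosomes.

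The 300 bases around the transcription start, 250 before it and 50 after it, were taken from RefSeq (GRCm38.p6) for 8 of the 9 receptors, all but Ly9. Those of the 4 chosen receptors with both a promoter and a called change with FL-NfL are shown, 5′ to 3′ on the strand of the gene, with capitals marking matches to the motifs searched.
Slamf9 promoter, chr1:172475110-172475409, plus strand: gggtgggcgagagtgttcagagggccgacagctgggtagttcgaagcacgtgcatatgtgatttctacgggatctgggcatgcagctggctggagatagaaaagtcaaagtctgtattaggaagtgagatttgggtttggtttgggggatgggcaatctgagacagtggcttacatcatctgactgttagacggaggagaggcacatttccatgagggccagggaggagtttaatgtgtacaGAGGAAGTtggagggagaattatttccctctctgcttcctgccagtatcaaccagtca
Slamf7 promoter, chr1:171648950-171649249, minus strand: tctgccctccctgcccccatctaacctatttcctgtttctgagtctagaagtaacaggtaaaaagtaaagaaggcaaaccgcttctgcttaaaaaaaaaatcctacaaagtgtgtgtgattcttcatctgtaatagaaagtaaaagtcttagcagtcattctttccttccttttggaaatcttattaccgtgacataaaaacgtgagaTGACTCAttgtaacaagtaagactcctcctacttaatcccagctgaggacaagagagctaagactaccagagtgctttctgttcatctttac
Slamf8 promoter, chr1:172590519-172590818, minus strand: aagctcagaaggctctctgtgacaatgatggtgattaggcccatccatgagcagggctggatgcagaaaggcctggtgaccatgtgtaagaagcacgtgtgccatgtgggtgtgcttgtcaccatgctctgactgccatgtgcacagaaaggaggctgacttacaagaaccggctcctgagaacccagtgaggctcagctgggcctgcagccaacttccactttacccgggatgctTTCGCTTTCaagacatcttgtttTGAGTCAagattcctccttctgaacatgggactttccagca
Cd84 promoter, chr1:171839447-171839746, plus strand: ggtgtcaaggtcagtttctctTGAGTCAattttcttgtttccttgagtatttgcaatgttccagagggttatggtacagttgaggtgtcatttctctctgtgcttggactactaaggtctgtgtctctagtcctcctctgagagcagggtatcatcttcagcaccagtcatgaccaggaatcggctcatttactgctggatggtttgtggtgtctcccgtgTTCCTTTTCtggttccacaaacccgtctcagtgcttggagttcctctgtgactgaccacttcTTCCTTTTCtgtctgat
Both strands were searched for 6 motifs of factors known from macrophages. These were NF-kB (GGGNNTTCC), the interferon-stimulated response element or ISRE (GAAANNGAA), the STAT site GAS (TTCNNNGAA), AP-1 (TGANTCA), PU.1 (GAGGAAGT) and C/EBP (TTGCNNAA), and none of the matches above overlapped another. Positions are counted from the start site, negative before it, and mark where a match begins. The Slamf9 window held a PU.1 match at base -8, and the Slamf7 window an AP-1 match at base -42. The Slamf8 window had an ISRE match at base -14 and an AP-1 match at base 10. Near its end it also holds gggactttcc, a longer form of the NF-kB site than the letters searched, which is not marked. Such longer forms were not searched in any window. The Cd84 window had ISRE matches at bases -29 and 34 and an AP-1 match at base -229. Of the receptors not shown, Cd244a had an AP-1 and a C/EBP match, and the windows of Cd48, Slamf1 and Slamf6 had none. Among all 32851 promoters of the table, 3.20% held PU.1, 7.81% AP-1, 8.56% ISRE, 5.82% NF-kB, 8.30% GAS and 10.8% C/EBP. A match describes letters and is not a site of binding. ISRE and AP-1 letters stood in the windows of both Slamf8, whose level was higher with FL-NfL, and Cd84, whose level was lower.

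Full-length NfL against vehicle asks what the whole protein does to the SLAM receptors. Slamf9, Slamf7, Ly9 and Slamf8 were higher with FL-NfL, by 15.5-fold, 6.78-fold, 2.78-fold and 2.07-fold. Cd84 was 1.25-fold lower, the level of Cd48 differed by less than its spread, and Slamf1 was near the limit of detection. Of the 7 genes, 4 were called higher, where 14.0% of all tested genes were, and 1 lower, where 10.9% were. A gene was called when its p-value in edgeR's quasi-likelihood F test, adjusted over all 14687 genes by the Benjamini-Hochberg method, was under 0.05. The median log2 fold change of the 7 was 1.48, and that of all tested genes was -0.02. These counts come from the comparison in whose light the genes were chosen, and nothing is read from them.

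**Figure D1:**
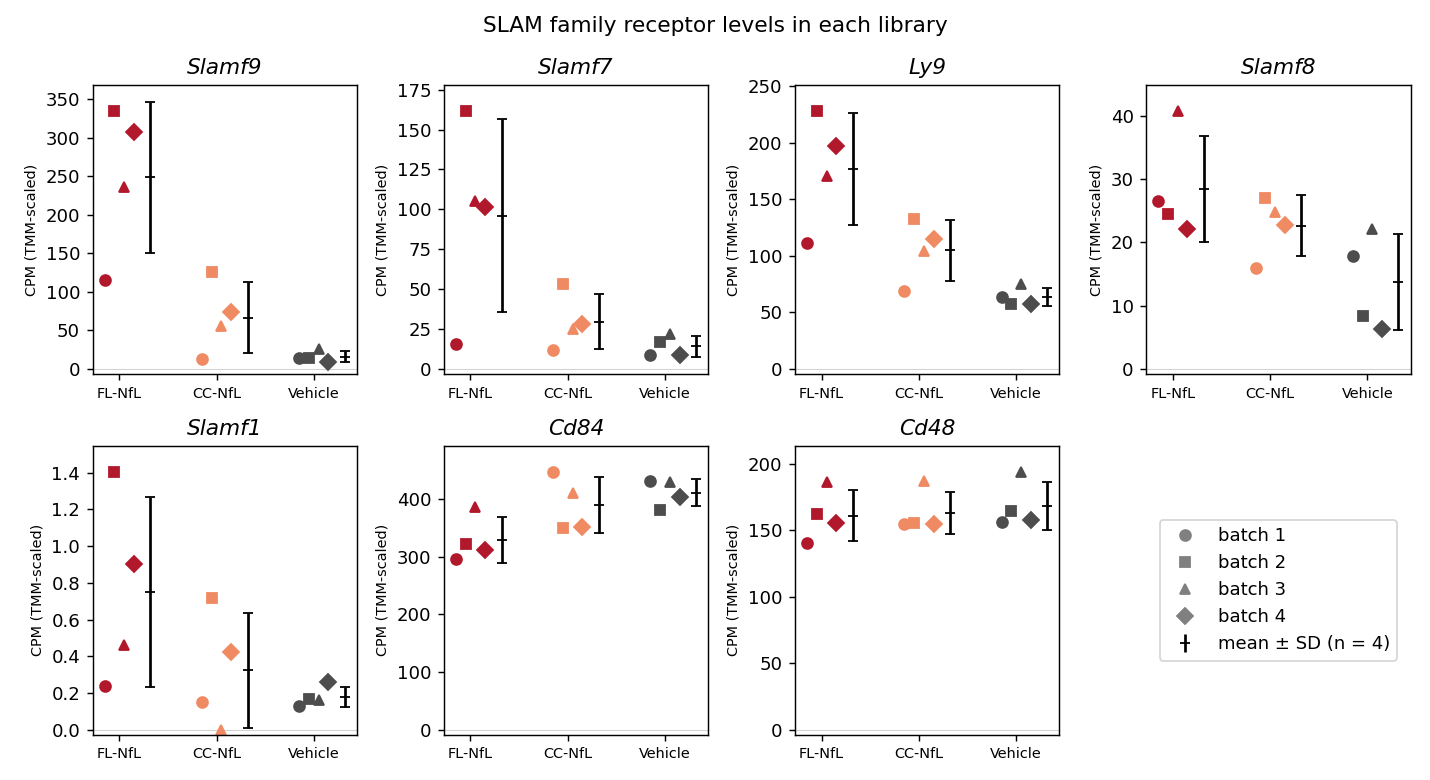
Each panel shows the level of a SLAM receptor (TMM-scaled CPM, vertical axis) in the 12 libraries of FL-NfL, CC-NfL and Vehicle, with a symbol for each batch and the mean ± SD of 4 libraries as a bar. Slamf9 and Ly9 in all 4 FL-NfL libraries lay above all 4 Vehicle libraries, and Cd48 was highest in batch 3 of every group.

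Slamf9 (ENSMUSG00000026548, GRCm38 chromosome 1, 172475358 to 172478575, plus strand) encodes a short-tailed receptor found on macrophages and dendritic cells. In replicates 1 to 4 it had 115.4, 335.0, 235.9 and 308.0 CPM with FL-NfL, 12.8, 125.3, 55.1 and 73.6 CPM with CC-NfL, and 14.8, 13.7, 26.3 and 9.16 CPM with Vehicle. Every FL-NfL library was above every Vehicle library, and CC-NfL replicate 1 was at the level of Vehicle while the other 3 CC-NfL libraries were above it. Against Vehicle, the log2 fold change with FL-NfL was 3.96 ± 0.61 (SE; 95% interval 2.58 to 5.33), which placed Slamf9 at rank 14 of 14687 genes by size of rise. Within batches 1 to 4 the log2 difference was 2.96, 4.60, 3.16 and 5.06. RNA of a whole culture cannot tell more cells that express a gene from more RNA per cell, here or for any gene below.

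Slamf7 (ENSMUSG00000038179, chromosome 1, 171632403 to 171653035, minus strand) encodes a self-binding receptor that, in mouse macrophages, takes part in the phagocytosis of blood tumour cells. It had 15.5, 161.8, 105.1 and 101.7 CPM with FL-NfL, 12.1, 53.1, 24.8 and 28.3 CPM with CC-NfL, and 8.81, 16.7, 22.0 and 8.95 CPM with Vehicle. FL-NfL replicate 1 lay within the Vehicle range, and the other 3 FL-NfL libraries were above all Vehicle libraries. The log2 fold change of FL-NfL against Vehicle was 2.76 ± 0.63 (SE; 95% interval 1.35 to 4.18). Each FL-NfL library was above the Vehicle library of its own batch, by 0.81, 3.27, 2.25 and 3.49 on the log2 scale. The exons of Slamf7 overlap the antisense transcript Gm37787 over 423 bases, or 9.24% of their length, and Gm37787 had at most 36 counts in any library. Whether the counting used strand is not given in the sources used here.

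Ly9 (ENSMUSG00000004707, chromosome 1, 171588624 to 171607410, minus strand) encodes the self-binding receptor also called SLAMF3 or CD229. It had 111.2, 228.1, 170.4 and 196.9 CPM with FL-NfL, 68.6, 132.1, 104.3 and 114.7 CPM with CC-NfL, and 63.8, 57.8, 75.0 and 57.4 CPM with Vehicle. All FL-NfL libraries were above all Vehicle libraries, and the CC-NfL libraries overlapped both groups. The log2 fold change of FL-NfL against Vehicle was 1.48 ± 0.22 (SE; 95% interval 0.97 to 1.98), with 0.80, 1.98, 1.18 and 1.78 within batches 1 to 4.

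Slamf8 (ENSMUSG00000053318, chromosome 1, 172581758 to 172590568, minus strand) encodes the other short-tailed receptor, which dampens oxidase activity in mouse macrophages. It had 26.5, 24.4, 40.8 and 22.1 CPM with FL-NfL, 15.9, 27.1, 24.8 and 22.7 CPM with CC-NfL, and 17.9, 8.42, 22.2 and 6.31 CPM with Vehicle. The groups overlapped at a single library, FL-NfL replicate 4 being just below Vehicle replicate 3. Its log2 fold change of FL-NfL against Vehicle was 1.05 ± 0.35 (SE; 95% interval 0.25 to 1.85). The means were 28.4 ± 8.43 CPM with FL-NfL and 13.7 ± 7.57 CPM with Vehicle (SD, n = 4 each). Leaving out any FL-NfL replicate, Vehicle replicate 1, 2 or 4 or CC-NfL replicate 2, 3 or 4 ended the call of Slamf8, with log2 fold changes of 0.82 to 1.21, and so did leaving out batch 1 (1.24) and the fit of FL-NfL and Vehicle alone (1.05).

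Slamf1 (ENSMUSG00000015316, chromosome 1, 171767127 to 171801184, plus strand) encodes the founding receptor of the family, which in mouse macrophages binds bacteria and enters the phagosome. It had 7, 35, 11 and 19 counts with FL-NfL, 4, 22, 0 and 11 counts with CC-NfL, and 3, 4, 4 and 6 counts with Vehicle. The fitted log2 fold change of FL-NfL against Vehicle was 2.03 ± 0.78 (SE; 95% interval 0.27 to 3.79) and was not called, though it was with the replicate number as a block (1.95), without FL-NfL replicate 1 (2.34) and without CC-NfL replicate 3 (2.03). With so few counts the size of this difference is loosely fixed.

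Cd84 (ENSMUSG00000038147, chromosome 1, 171839697 to 171890718, plus strand) encodes a self-binding receptor of myeloid cells and platelets. It had 295.8, 321.4, 386.9 and 312.5 CPM with FL-NfL, 448.0, 349.6, 410.1 and 351.9 CPM with CC-NfL, and 431.2, 381.6, 429.6 and 403.4 CPM with Vehicle. Only FL-NfL replicate 3 reached into the Vehicle range, and the CC-NfL libraries overlapped both groups. FL-NfL against Vehicle gave a log2 fold change of -0.32 ± 0.10 (SE; 95% interval -0.56 to -0.09), with -0.54, -0.25, -0.15 and -0.37 within batches 1 to 4. The call of Cd84 was lost without FL-NfL replicate 1, 2 or 4, without any 1 of the 4 Vehicle libraries (-0.27 to -0.35), without batch 1 (-0.25) and without the filter on low counts (-0.31).

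Cd48 (ENSMUSG00000015355, chromosome 1, 171682009 to 171705258, plus strand) is the lipid-anchored ligand. It had 140.1, 162.3, 186.1 and 155.1 CPM with FL-NfL, 154.8, 155.6, 186.8 and 154.3 CPM with CC-NfL, and 156.0, 164.7, 194.1 and 157.6 CPM with Vehicle. The 3 groups overlapped, and the highest library of each was that of batch 3. In the fit without the batches, FL-NfL against Vehicle gave a log2 fold change of -0.06 ± 0.10 (SE; 95% interval -0.30 to 0.17). Changes within this interval are not excluded. Within batches 1 to 4 the log2 difference of Cd48 was -0.16, -0.02, -0.06 and -0.02.

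Cd244a, the receptor of Cd48, rose with FL-NfL from a low level. It had 4.92, 9.44, 9.67 and 8.25 CPM with FL-NfL, 3.66, 4.29, 5.02 and 3.46 CPM with CC-NfL, and 3.34, 2.72, 4.22 and 2.94 CPM with Vehicle. The log2 fold change of FL-NfL against Vehicle was 1.28 ± 0.23 (SE; edgeR adjusted p = 0.00271), and all 4 FL-NfL libraries were above all Vehicle libraries. Ly9 lies within the annotated span of Cd244a on the opposite strand, and the exons of these genes share no base. Slamf6, a self-binding receptor best known from lymphocytes, had 4.89 to 6.78 CPM with FL-NfL, 4.01 to 4.77 CPM with CC-NfL and 3.24 to 5.22 CPM with Vehicle. Its log2 fold change of 0.42 ± 0.16 was not called (edgeR adjusted p = 0.0778) but was with the replicate block (0.42, adjusted p = 0.0185) and without Vehicle replicate 3 (0.55).

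**Figure D2:**
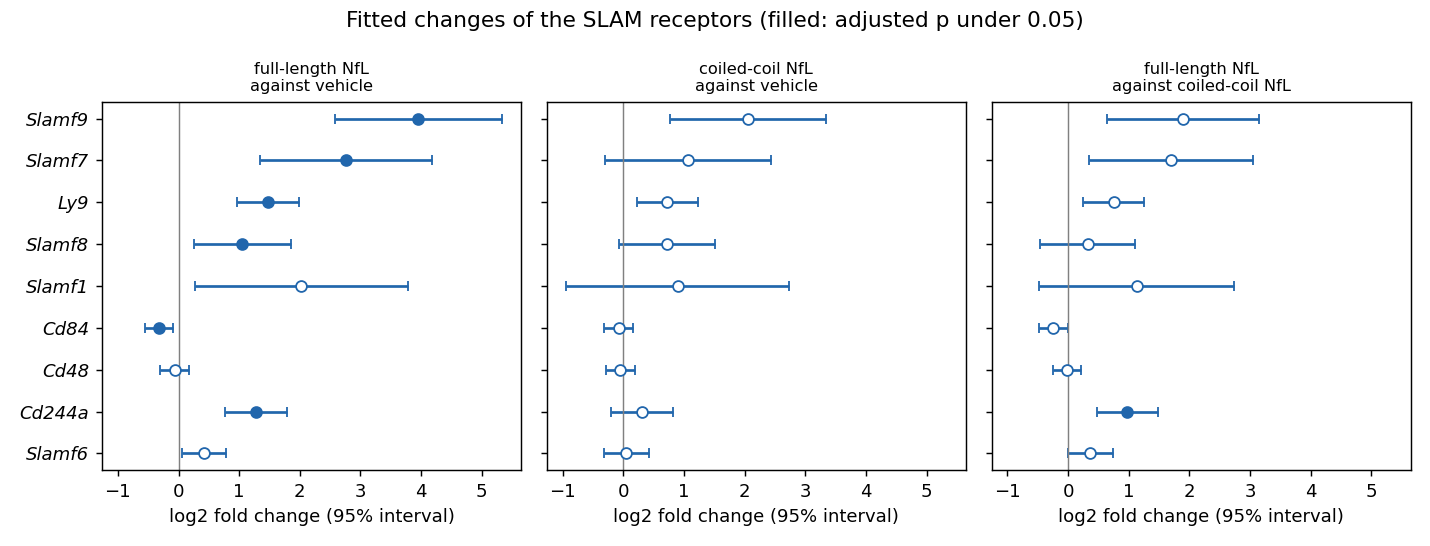
Log2 fold changes (horizontal axis, with 95% intervals) of the 9 SLAM receptors are shown in 3 panels: full-length NfL against vehicle, coiled-coil NfL against vehicle, and full-length against coiled-coil NfL, with filled points for adjusted p-values under 0.05. Filled points in the panel at the left are those of Slamf9, Slamf7, Ly9, Slamf8, Cd84 and Cd244a, the middle panel has none, and the panel at the right has only Cd244a.

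Within batches, FL-NfL and Vehicle differed in the same direction for every chosen gene. With FL-NfL against Vehicle, 5 of the 7 were higher in all 4 batches and 2, Cd84 and Cd48, were lower in all 4, where 26.5% of all tested genes were higher and 28.1% lower in all 4. Of the 7, 2 had FL-NfL libraries wholly above the Vehicle libraries, against 14.5% of all tested genes, and none wholly below, against 11.4%. The smallest rise of Slamf9, Slamf7, Ly9, Slamf8 and Slamf1 was that of batch 1 in each case. With the replicate number as a block, 5 of the 7 were called higher, where 21.4% of tested genes were, and 1 lower, where 22.4% were. The block added Slamf1 to the called genes. Without batch 1, an alternative added after seeing the data, 3 were called, Ly9, Slamf9 and Slamf7, all higher. Of 14578 genes tested there, 1950 were called higher and 1465 lower.

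**Figure D3:**
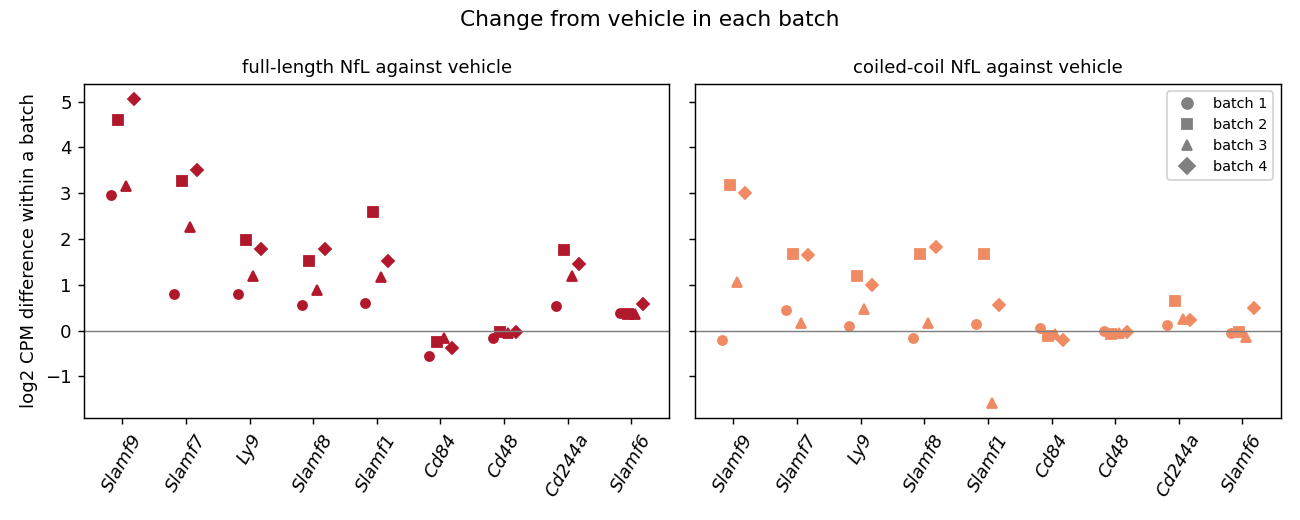
Differences in log2 CPM from the Vehicle library of the same batch (vertical axis) are shown for each SLAM receptor, FL-NfL in the left panel and CC-NfL in the right panel, with a symbol for each batch. Slamf9 was 2.96 to 5.06 higher in all 4 batches with FL-NfL and -0.21 to 3.18 with CC-NfL, and batches 2 and 4 lay above batches 1 and 3 for Slamf9, Ly9 and Slamf8 in both panels.

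Coiled-coil NfL against vehicle asks what the rod fragment does. None of the 7 genes was called, and 0% of all tested genes were called higher and 0% lower by edgeR's quasi-likelihood F test, although 1082 genes had an unadjusted p-value under 0.05 and DESeq2 called 33. With the replicate block 0.00681% were called higher and 0.00681% lower, again none of the 7. The Slamf9 mean was 66.7 ± 46.6 CPM with CC-NfL and 16.0 ± 7.28 CPM with Vehicle (SD, n = 4 each), a log2 fold change of 2.06 ± 0.57 (SE; 95% interval 0.78 to 3.35) and rank 16 by size among 14687 genes. Ly9 averaged 104.9 ± 26.8 CPM with CC-NfL and 63.5 ± 8.23 CPM with Vehicle, a log2 fold change of 0.72 ± 0.22 (SE; 95% interval 0.22 to 1.23). The intervals of the other 5 included 0, with Slamf7 at 1.07 (95% interval -0.30 to 2.43), Slamf8 at 0.72 (-0.07 to 1.52) and Cd84 at -0.08 (-0.31 to 0.16). The batches split here. Slamf9 differed by 3.18 and 3.00 on the log2 scale in batches 2 and 4, by 1.07 in batch 3 and by -0.21 in batch 1. Slamf8 differed by 1.68 and 1.84 in batches 2 and 4, and by 0.16 and -0.17 in batches 3 and 1. The median log2 fold change of the 7 was 0.72, and that of all tested genes was 0.004.

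Full-length against coiled-coil NfL asks whether the forms differ, at the same 5 µg and 24 h. The dose was matched by mass, so the form and the number of molecules given cannot be told apart. None of the 7 was called, where 1.38% of all tested genes were higher and 1.34% lower. The log2 fold change of FL-NfL against CC-NfL was 1.90 ± 0.55 for Slamf9 (SE; 95% interval 0.65 to 3.15), 1.70 ± 0.60 for Slamf7 (0.35 to 3.04) and 0.75 ± 0.22 for Ly9 (0.25 to 1.25). In each batch FL-NfL was above CC-NfL for these 3 genes and for Slamf1, and below it for Cd84. Of the 7, 4 were thus higher in all 4 batches and 1 lower, where 21.1% and 22.3% of all tested genes were. The Ly9 difference was 0.70 to 0.79 in the 4 batches. With the replicate block Slamf9, Slamf7 and Ly9 were called, where 8.99% of tested genes were higher and 10.1% lower, and DESeq2 called Ly9 and Slamf9. Ly9 and Slamf7 were called without FL-NfL replicate 1 (0.93 and 2.06), Slamf9 without CC-NfL replicate 2 (2.41) and Ly9 without batch 1 (0.76). Cd244a was higher with FL-NfL than with CC-NfL (log2 fold change 0.97 ± 0.22, edgeR adjusted p = 0.0425), a call lost on leaving out any FL-NfL library other than replicate 1, any CC-NfL library, or Vehicle replicate 1, 2 or 4 (0.88 to 1.08), and in the fit of these groups alone (0.97). For Slamf8 the 95% interval ran from -0.46 to 1.11 and for Cd48 from -0.25 to 0.22. FL-NfL against Vehicle and FL-NfL against CC-NfL share the FL-NfL libraries, and both comparisons with Vehicle share the Vehicle libraries, so their values are set side by side only.

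Receptors were compared with each other as CPM per kilobase of exon. On this scale the order with FL-NfL was Slamf9, Cd48, Ly9, Cd84, Slamf7, Slamf8, Cd244a, Slamf6 and Slamf1, and with Vehicle Cd48, Cd84, Ly9, Slamf9, Slamf8, Slamf7, Cd244a, Slamf6 and Slamf1. With CC-NfL it was Cd48, Cd84, Slamf9, Ly9, Slamf8, Slamf7, Cd244a, Slamf6 and Slamf1. Slamf9 averaged 189.3 ± 74.7 CPM per kilobase with FL-NfL, 50.8 ± 35.5 with CC-NfL and 12.2 ± 5.54 with Vehicle (SD, n = 4 each). Cd48 averaged 135.3 ± 16.1 CPM per kilobase with FL-NfL, 137.0 ± 13.4 with CC-NfL and 141.4 ± 14.9 with Vehicle. With FL-NfL, Slamf9 and Cd48 overlapped in range, as did Ly9 and Cd84 (53.4 and 52.5 CPM per kilobase) and Slamf7 and Slamf8 (21.0 and 9.23). The lowest FL-NfL value of Ly9 (33.6) was also below the highest of Slamf7 (35.3). With CC-NfL, Slamf9 overlapped both Cd84 and Ly9 (50.8, 62.2 and 31.7 CPM per kilobase), and Slamf8 overlapped Slamf7 (7.35 and 6.46). The lowest CC-NfL value of Slamf9 (9.71) was also below the highest of Slamf7 (11.6). With Vehicle, Slamf9 overlapped both Ly9 and Slamf8 in range (12.2, 19.2 and 4.45 CPM per kilobase), and Slamf8 overlapped Slamf7 (4.45 and 3.09).

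**Figure D4:**
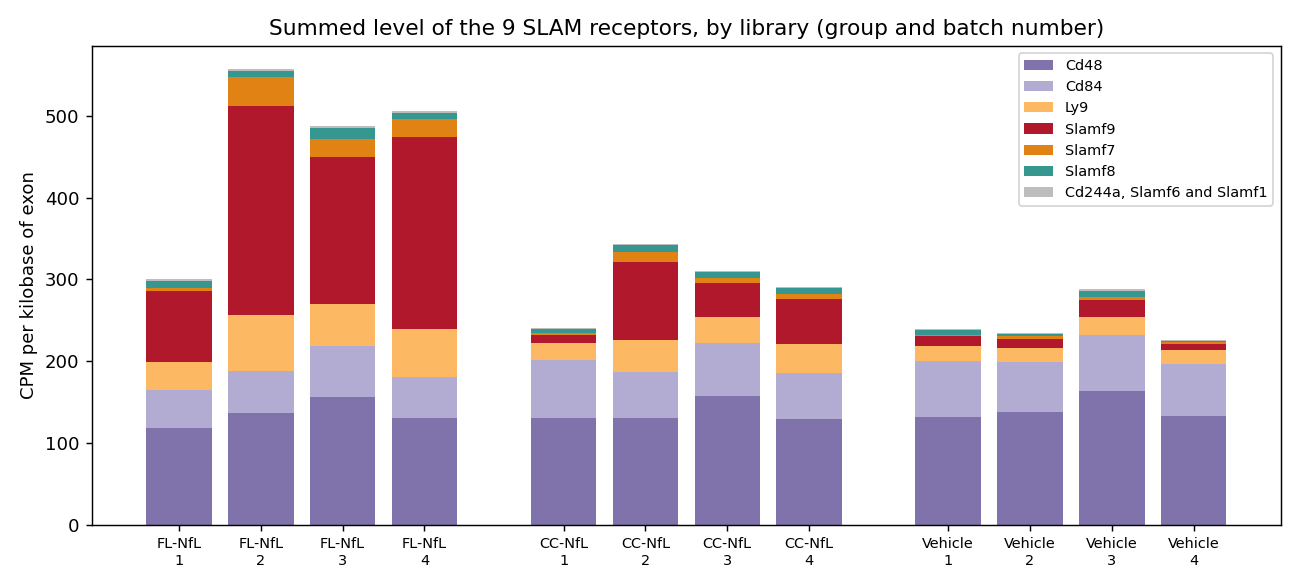
Bars show the summed level of the 9 SLAM receptors (CPM per kilobase of exon, vertical axis) in each library, ordered FL-NfL, CC-NfL and Vehicle, with a colour for each receptor and the lowest 3 pooled. The Cd48 part is of like height throughout, and the Slamf9 part makes most of the difference between the FL-NfL and the Vehicle bars.

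The 9 receptors summed to 300.0 to 557.8 CPM per kilobase in FL-NfL libraries, 241.0 to 343.7 in CC-NfL libraries and 226.2 to 287.8 in Vehicle libraries. Slamf9 made up 29.3% to 46.4% of that sum in FL-NfL libraries, 4.03% to 27.8% in CC-NfL libraries and 3.09% to 6.95% in Vehicle libraries. It was the top receptor in FL-NfL replicates 2, 3 and 4. Cd48 was the top receptor in FL-NfL replicate 1 and in every CC-NfL and Vehicle library, with 46.2% of the sum of mean levels with CC-NfL and 57.2% with Vehicle, against 29.2% with FL-NfL.

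The adaptors that act below these receptors were scarce. Sh2d1a, which encodes SAP, and Sh2d1b2, which encodes ERT, had 0 counts in all 12 libraries, which allows a level of up to 0.0966 to 0.149 CPM per library (3 counts, counting error only). Sh2d1b1, which encodes EAT-2, had 25 to 130 counts per library and was highest in batch 3 of every group. Its means were 2.42 ± 2.03 CPM with FL-NfL, 2.21 ± 1.45 with CC-NfL and 1.85 ± 0.89 with Vehicle, and it was not called (log2 fold change of FL-NfL against Vehicle 0.38 ± 0.57, edgeR adjusted p = 0.642; of CC-NfL against Vehicle 0.24 ± 0.57, adjusted p = 0.934). Sh2d1b1 and Sh2d1b2 are close copies, and how reads matching both were counted is not given in the sources used here.

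Of 14 kinases, phosphatases and linkers that act with SLAM receptors, 8 rose with FL-NfL, 1 fell and 5 were not called, where 14.0% of all tested genes rose and 10.9% fell, with a median log2 fold change of 0.40 (-0.02 for all tested genes). With the replicate block 11 rose and 1 fell, where 21.4% and 22.4% of all tested genes did. Vav1, an exchange factor for Rac proteins, rose by 0.62 ± 0.12 on the log2 scale (edgeR adjusted p = 0.00451) and the linker Blnk by 0.33 ± 0.07 (adjusted p = 0.00559). Fyn, the kinase that SAP binds, was the gene that fell, with 48.4 ± 5.97 CPM with FL-NfL and 64.4 ± 10.6 CPM with Vehicle (log2 fold change -0.41 ± 0.12, adjusted p = 0.0247). The Fyn call was lost without FL-NfL replicate 1 or Vehicle replicate 2 or 4 (-0.33 to -0.34) and in the fit of these groups alone (-0.42).

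The phagocyte oxidase and the class III PI3 kinase complex, which Slamf1 and Slamf8 act on in mouse macrophages, had 12 tested genes, of which 3 rose, 2 fell and 7 were not called with FL-NfL (median 0.13), where 14.0% of all tested genes rose and 10.9% fell. Rac2, the small GTPase that activates the oxidase, had the largest change of the 12. It averaged 1154 ± 187.8 CPM with FL-NfL, 476.3 ± 142.4 with CC-NfL and 251.4 ± 60.6 with Vehicle, a log2 fold change of 2.20 ± 0.24 for FL-NfL against Vehicle (edgeR adjusted p = 0.000386) and of 1.28 for FL-NfL against CC-NfL (adjusted p = 0.0214). The second of these calls was lost without FL-NfL replicate 2 or 4 or CC-NfL replicate 3 (1.18 to 1.26). The cytosolic oxidase subunits Ncf1 and Ncf4 rose by 0.66 ± 0.15 and 0.57 ± 0.16 (adjusted p = 0.00801 and 0.0253), the Ncf4 call being lost without FL-NfL replicate 3 or Vehicle replicate 2 (0.53 and 0.49) and in the fit of these groups alone. The membrane subunit Cybb averaged 4222 CPM with FL-NfL and 3523 CPM with Vehicle and was not called (adjusted p = 0.293). The lipid kinase Pik3c3 and its partner Pik3r4 fell by 0.28 ± 0.08 and 0.22 ± 0.07 (adjusted p = 0.0273 and 0.0495), and both calls were lost without FL-NfL replicate 2 or 4, Vehicle replicate 1, 3 or 4, or batch 1, and without the filter on low counts. Pik3r4 was also not called without FL-NfL replicate 1.

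Of 10 macrophage partners of phagocytosis, 2 rose and 2 fell with FL-NfL, and 6 were not called (median 0.30), where 14.0% of all tested genes rose and 10.9% fell. Fcer1g, the signalling chain of activating Fc receptors, rose by 0.91 ± 0.14 (edgeR adjusted p = 0.00136). Fcgr1, the high-affinity Fc receptor, rose by 0.81 ± 0.27 (adjusted p = 0.0467), a call lost on leaving out any of 8 single libraries (0.69 to 0.88) and in the fit of these groups alone. Fcgr3 fell by 1.32 ± 0.30 (adjusted p = 0.00864), and the inhibitory receptor Fcgr2b fell by 0.91 ± 0.25 (adjusted p = 0.0204), a call lost without FL-NfL replicate 4 or batch 1 (-0.78 and -0.88). Fc receptor genes resemble each other, so that short reads may be shared among them. With the replicate block 6 of the 10 rose and 3 fell, where 21.4% and 22.4% of all tested genes did. The integrin chains Itgam and Itgb2, which together form the Mac-1 partner of Slamf7, were not called (log2 fold changes 0.28 ± 0.19 and 0.46 ± 0.21). None of the genes in these lists was called with CC-NfL against Vehicle. Those with the smallest p-values were Rac2 (0.92), Ptpn6 (0.37) and Fcer1g (0.39), with edgeR adjusted p-values of 0.621, 0.653 and 0.661. DESeq2 called Rac2 in that comparison. With FL-NfL against CC-NfL none of the 14 enzymes and linkers and none of the 10 phagocytosis partners was called. Of all tested genes 1.38% were called higher and 1.34% lower there. With the replicate block 7 enzymes and linkers and 4 partners were higher, and 1 in each list was lower. The block called 8.99% of all tested genes higher and 10.1% lower in that comparison.

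The neighbourhood of the family was examined next. The 7 genes span 1001945 bases, from 171588624 to 172590568 on chromosome 1 of GRCm38, and with 200000 bases on either side the region holds 28 other protein-coding genes besides Slamf6 and Cd244a, of which 21 were tested. With FL-NfL 3 of the 21 rose and 5 fell, where 14.0% of all tested genes rose and 10.9% fell, and with the replicate block 6 rose and 7 fell, where 21.4% and 22.4% did. Without the block the 21 had a median log2 fold change of 0.06 (-0.02 for all tested genes). The largest rise was in Igsf9 (172481788 to 172498878, plus strand), an adhesion protein known from synapses, which starts 3213 bases after the end of Slamf9 on the same strand. Igsf9 averaged 9.24 ± 2.81 CPM with FL-NfL, 2.99 ± 0.67 with CC-NfL and 2.17 ± 0.35 with Vehicle, a log2 fold change of 2.08 ± 0.24 for FL-NfL against Vehicle (edgeR adjusted p = 0.000453) and of 1.62 for FL-NfL against CC-NfL (adjusted p = 0.00962). It was also the only 1 called of 3 tested genes in a list of other immunoglobulin superfamily genes in this fit, Igsf8 and Cd101 being the others. With the replicate block Cd101 was called lower (log2 fold change -1.06, edgeR adjusted p = 0.0402, against 0.233 without the block). In a further gene of that list, Cd2, at most 2 counts were found. Ncstn, a subunit of gamma-secretase, rose by 0.37 and the coatomer gene Copa by 0.23 (adjusted p = 0.00843 and 0.0242). The Copa call was lost without FL-NfL replicate 2 or 4 or Vehicle replicate 4 (0.21 to 0.23) and without the filter on low counts (0.24).

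**Figure D5:**
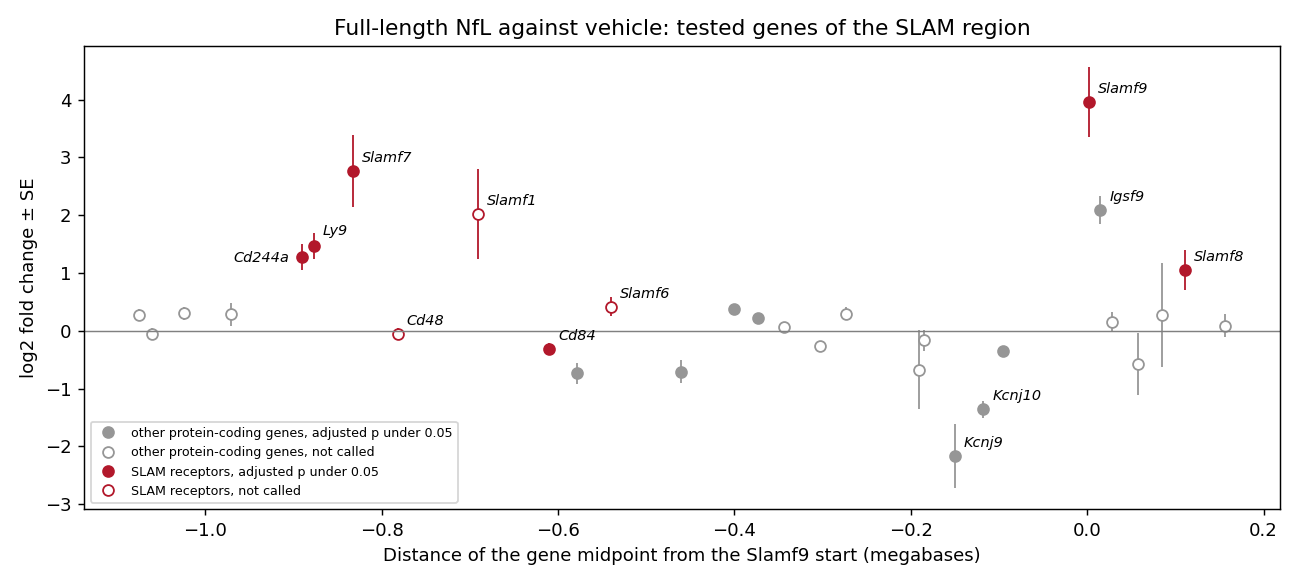
Log2 fold changes of full-length NfL against vehicle (vertical axis, ± SE) are plotted for the tested genes of the SLAM region by distance of their midpoint from the start of Slamf9 (horizontal axis, megabases), with SLAM receptors in red, other genes in grey and called genes filled. Slamf9 at 3.96 and Igsf9 at 2.08 lie next to each other, and Kcnj10 at -1.36, between Slamf6 and Slamf9, lies below 0.

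The potassium channel genes Kcnj10 and Kcnj9, between Slamf6 and Slamf9, changed the other way. Kcnj10 averaged 13.7 ± 3.21 CPM with FL-NfL, 27.1 ± 2.21 with CC-NfL and 35.2 ± 2.62 with Vehicle (log2 fold change of FL-NfL against Vehicle -1.36 ± 0.15, edgeR adjusted p = 0.000386). Kcnj9 was at 0.22 CPM with FL-NfL and 0.95 CPM with Vehicle (-2.17 ± 0.56, adjusted p = 0.0155), a handful of counts. Gm10521, Vangl2 and Pigm fell by 0.73, 0.71 and 0.35 (adjusted p = 0.0136, 0.0233 and 0.0138), and the Vangl2 call was lost without FL-NfL replicate 2, 3 or 4 or Vehicle replicate 1 or 4 (-0.56 to -0.70). Vangl2, a planar polarity gene, was the neighbour with the smallest p-value for CC-NfL against Vehicle (-0.56, adjusted p = 0.661).

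Across the 12 libraries, with the mean of each group removed, Slamf9, Slamf7 and Ly9 varied together. Pearson's r of log2 CPM was 0.93 for Slamf9 and Ly9, 0.91 for Slamf7 and Ly9 and 0.81 for Slamf7 and Slamf9. These are descriptions over libraries that share their batches and depth. Cd48 varied most like Cd244a (0.82) and Slamf6 (0.74), and Slamf8 like Slamf6 (0.83), with the 3 highest values of Cd48 all in batch 3. Slamf9 and Cd84 had an r of -0.37.

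The tested genes most like each receptor were found by Pearson's r of log2 CPM, without and with removal of the group means. Over the 12 libraries as they stand, Slamf9 was most like Pgap2 (0.993), Bag1 (0.992) and Gmpr2 (0.989), and Ly9 most like Mrpl45 (0.992), Psmc2 (0.990) and Babam1 (0.989). Slamf7 was most like Coro2a (0.982), Stim2 (0.973) and Cept1 (0.970), and Cd84 most like Tgoln1 (0.964), Togaram1 (0.963) and Gtf2b (0.957). Cd48 was most like Tnfsf8 (0.955), Gm1966 (0.943) and Kctd21 (0.940). Slamf8 was most like Gm5424 (0.973), Rpl41 (0.964) and Ctsz (0.964), the first 2 of which have near copies elsewhere in the genome. With the group means removed Slamf9 was most like H2-K1 (0.985), Plrg1 (0.981) and Nosip (0.981), and Slamf7 most like Cndp2 (0.975), Coro2a (0.966) and Smcr8 (0.959). Ly9 was then most like Mrpl45 (0.985), Idua (0.978) and Ccdc59 (0.974), and Slamf8 most like Acod1 (0.965), B3gnt2 (0.964) and Tbcd (0.960). Cd48 was most like Gm1966 (0.976), Treml2 (0.973) and Snap23 (0.973), and Cd84 most like Col4a3bp (0.958), Ccng2 (0.946) and Slc41a2 (0.941). Only Coro2a, Mrpl45 and Gm1966 stood among the nearest genes of the same receptor both ways.

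Markers of other cells of the culture were summed in the same way. The 5 border-associated macrophage markers summed to 317.5 to 634.7 CPM in FL-NfL libraries. In CC-NfL libraries the sum was 480.7 to 1093 CPM and in Vehicle libraries 680.0 to 1278 CPM. Most of that sum was Mrc1, at 421.2 CPM with FL-NfL and 805.4 CPM with Vehicle. Of the 4 that were tested, 1 was called lower with FL-NfL, Mrc1. Of the 5 neuron markers 1 was called lower, Rbfox3, at 0.12 CPM with FL-NfL and 0.53 CPM with Vehicle. Neuron markers summed to 3.27 to 11.8 CPM in FL-NfL libraries, 5.42 to 17.3 in CC-NfL libraries and 8.48 to 22.7 in Vehicle libraries. Astrocyte markers summed to 19.4 to 25.3, 19.4 to 35.7 and 20.7 to 37.4 CPM, oligodendrocyte lineage markers to 81.1 to 99.9, 94.9 to 152.9 and 105.7 to 146.1 CPM, and fibroblast markers to 1.80 to 14.1, 2.36 to 14.3 and 4.14 to 20.6 CPM in the same order of groups. Of the 5 tested oligodendrocyte lineage markers 1 was called higher with FL-NfL, Mag, at 8.74 CPM with FL-NfL and 5.43 CPM with Vehicle. No astrocyte or fibroblast marker was called. Without the replicate block 14.0% of all tested genes were called higher with FL-NfL and 10.9% lower. With the replicate block 5 of 5 neuron, 3 of 5 astrocyte and 1 of 3 tested fibroblast markers were called lower. Of 5 tested oligodendrocyte lineage markers the block called 1 higher and 2 lower. Of 4 tested border-associated macrophage markers it called 1 higher and 2 lower. Of all tested genes 21.4% were called higher and 22.4% lower with the block. The part of these cells in the levels of the SLAM receptors was not tested.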

How the data were processed

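The deposited values are raw read counts, 1 row for each Ensembl gene, for 12 libraries of polyadenylated RNA made with a stranded kit and read as single reads of 50 bases, per the labels' protocols. Reads were aligned to GRCm38 with GSNAP, per the submitters' processing notes. Which tool counted the reads, with which annotation and whether by strand, is not stated in those sources. Symbols and positions came from GENCODE M21, which matched 99.6% of the 52636 identifiers, and promoters from RefSeq.

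Genes were filtered with filterByExpr (14687 kept), scaled with TMM and fitted in 1 quasi-likelihood model of 3 groups with 9 residual degrees of freedom (edgeR 4.0.16, limma 3.58.1, R 4.3.3). Benjamini-Hochberg adjustment ran over every tested gene, calls needed an adjusted p under 0.05, and every adjusted p here comes from that edgeR fit unless another tool is named. SEs come from the F statistic, and 95% intervals are t intervals with 9 degrees of freedom. Log2 CPM used a prior count of 2. The fit was tested on simulated counts, drawn with the same dispersion for every gene and no batch effect, unlike the real libraries. DESeq2 1.42.0 was an alternative, beside other scalings, no filter, the replicate block, fits of 2 groups and leaving out each library.

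The members and lists were chosen with earlier results of these data known. Named genes are all members, the other 2 receptors, up to 3 called genes in each direction from each list (or the gene with the smallest p) and the 3 genes most like each member of at least 1 CPM. Itgam, Itgb2, Cybb and Kcnj9, and Vangl2 in the comparison of FL-NfL with Vehicle, were named after their values were seen, and 1 gene that the rule names is not reported here. Precision is limited by 4 libraries per group. The labels put each replicate number in a batch of its own, and libraries of the same number correlated at 0.31 to 0.73 once group means were removed (12 of 12 pairs over 0.1), so the numbers pair the samples.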

Additional observations from a re-analysis of the deposited data

Results flagged for a closer look

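Among 27 sets of 4 libraries (9 receptors in 3 groups), 1 had a library far from the other 3. Cd48 in CC-NfL replicate 3 was at 186.8 CPM, and the other CC-NfL libraries were at 154.3 to 155.6 CPM. The gap to its nearest neighbour was 0.961 of the range of the group, above Dixon's 95% critical value for 4 samples. Chance gives such a library in about 1 of 20 sets. The FL-NfL and Vehicle libraries of batch 3 were also the highest of their groups, at 186.1 and 194.1 CPM.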

How the results depend on the processing

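Calls of the 7 receptors are given as a description, since these genes were chosen with the outcome known, and they do not bear on the choice. For FL-NfL against Vehicle Slamf9, Slamf7 and Ly9 were called under each of 19 alternatives. The members called there were 3 without batch 1 and 3 to 5 on leaving out single libraries, with 3 without FL-NfL replicate 2 or 4 or Vehicle replicate 1, 2 or 4, against 5 in the fit as reported. All genes called there were 3656 in the fit as reported and 3415 without batch 1. With the replicate block, which the batch labels make a true pairing, they were 6432. Without single libraries they were 2384 to 4084, with 2384 without FL-NfL replicate 2 and 2417 without Vehicle replicate 4. Upper-quartile scaling gave 1691 higher and 2003 lower genes, against 2062 and 1594 with TMM. For CC-NfL against Vehicle no member was called under any alternative, and the genes called were 33 with DESeq2, 2 with the replicate block, 12 without batch 1 and 0 to 26 without single libraries (26 without CC-NfL replicate 1). For FL-NfL against CC-NfL the members called were 2 with DESeq2, 3 with the replicate block, 1 without batch 1 and 0 to 2 without single libraries. The genes called there were 1425 with DESeq2, 2806 with the replicate block, 168 in the fit of these groups alone, 216 without batch 1 and 32 to 601 without single libraries, with 32 without FL-NfL replicate 2, 37 without FL-NfL replicate 4 and 601 without FL-NfL replicate 1.

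Of the values for single genes, 1637 kept their direction and side of the threshold, 78 lost a call, 31 gained one and 12 changed sign, the last in 3 genes that were not called. On leaving out single libraries Cd48 ran from -0.14 to 0.014 for FL-NfL against Vehicle, -0.12 to 0.032 for CC-NfL against Vehicle and -0.094 to 0.058 for FL-NfL against CC-NfL (0.019 without batch 1). Sh2d1b1 ran from -0.39 to 0.75, -0.29 to 0.61 and -0.63 to 0.68 in the same comparisons, and Slamf6 from -0.051 to 0.18 for CC-NfL against Vehicle. The cause was not tested. The filter removed Slamf1 in the fits of FL-NfL or CC-NfL with Vehicle alone, and DESeq2 gave it no adjusted p for CC-NfL against Vehicle or FL-NfL against CC-NfL. Depth limits what can be said of Slamf1, with at most 35 counts in a library, and of Sh2d1a and Sh2d1b2, with 0.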
